A study of Mus musculus with 20 samples.

Results

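Regulators of G protein signalling (RGS proteins) are GTPase-activating proteins: they speed the hydrolysis of GTP by G protein alpha subunits and so end the signal that a G protein-coupled receptor has started. The levels of 6 genes of this family, Rgs2, Rgs3, Rgs4, Rgs5, Rgs10 and Rgs16, and of Penk, which encodes the proenkephalin precursor of the enkephalin opioid peptides, were followed in embryonic mouse hearts in which the histone methyltransferase gene Kmt2d was deleted. These 7 genes were taken by symbol from the 33495 genes of the count table, and all 7 matched a row. They were selected on their mutant against control changes and on the difference of those changes between Cre lines, values already known from the same libraries. Those values are therefore given as a description, and the false discovery rates (FDR) beside them come from fits over the whole table and are not independent support.

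The 20 RNA-seq libraries came from C57BL/6 embryos of 3 Cre lines. Mesp1Cre is active in mesodermal precursors, Tnnt2::Cre in the myocardium and Mef2cAHF::Cre in precursors of the anterior heart field, so cells outside each domain keep Kmt2d in the mutants. Whole hearts at E9.0 were sequenced for Mesp1Cre (4 mutants and 4 controls), whole hearts at E11.5 for Tnnt2::Cre (3 mutants and 3 controls), and right ventricle with outflow tract at E11.5 for Mef2cAHF::Cre (3 samples titled mutant and 3 titled control). Mutants carried the Cre with Kmt2d fl/fl and mTmG/+, and the controls, which the labels call WT, carried the same Cre with Kmt2d fl/+ and mTmG/+, so that the controls had lost 1 allele in the Cre domain. The labels do not say that replicates came from separate embryos, so the p-values measure the spread between these libraries, which may be partly technical. For Mesp1Cre the protocol text of the labels gives E11.5 instead of E9.0.

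Reads assigned to genes ran from 21727258 to 45341870 per library. Kmt2d itself, listed as Mll2, was lower in mutants than in controls without overlap in Mesp1Cre (log2 fold change -0.21, edgeR FDR = 0.0764) and in Tnnt2::Cre (-0.35, FDR = 0.327). In Mef2cAHF::Cre it was higher in the libraries labelled mutant (183 to 190 CPM, reads scaled to the library total) than in those labelled control (142 to 153 CPM), with a log2 fold change of 0.32 (edgeR FDR = 0.0359). The column names of the table give those 6 libraries the opposite genotypes to their titles. Both readings are given for that line: its values follow the titles, and the column names reverse every sign. Cardiomyocyte markers were abundant in every library, with 9 genes summing to between 7670 and 13400 CPM.

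Of the RGS genes followed here, Rgs2, Rgs3, Rgs4, Rgs5 and Rgs16 belong to the R4 subfamily, small proteins with little beyond the RGS domain apart from the longer forms of Rgs3, and Rgs10 belongs to the R12 subfamily. Rgs5 is known as a gene of pericytes and vascular smooth muscle, the mural cells of vessels. Rgs2 is known for its preference for Gq-type alpha subunits, and Rgs10 and Rgs18 are both known from platelets and blood cells. Enkephalins cut from proenkephalin act mainly on delta and mu opioid receptors.

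Rgs5 and Rgs4 are immediate neighbours. In mm9, Rgs5 (ENSMUSG00000026678) lies on chr1:171585632-171625944 on the plus strand and Rgs4 (ENSMUSG00000038530) on chr1:171671608-171677773 on the minus strand, with 45664 bases between their facing 3′ ends. Their promoters are shown because the pair of neighbours had the lowest fold changes of the 6 RGS genes in Tnnt2::Cre. Each run holds the 250 bases before the RefSeq transcription start in build GRCm38.p6, at chr1:169655251-169655500 (plus strand) for Rgs5 and chr1:169747643-169747892 (minus strand) for Rgs4, read 5′ to 3′ along the gene. Capitals mark the letters CCAAT or TATAAA on either strand.
Rgs5: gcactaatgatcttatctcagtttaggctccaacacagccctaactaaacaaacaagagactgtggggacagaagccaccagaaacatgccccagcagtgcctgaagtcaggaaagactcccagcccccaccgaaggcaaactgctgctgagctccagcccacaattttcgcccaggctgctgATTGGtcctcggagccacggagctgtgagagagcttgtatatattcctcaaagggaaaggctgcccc
Rgs4: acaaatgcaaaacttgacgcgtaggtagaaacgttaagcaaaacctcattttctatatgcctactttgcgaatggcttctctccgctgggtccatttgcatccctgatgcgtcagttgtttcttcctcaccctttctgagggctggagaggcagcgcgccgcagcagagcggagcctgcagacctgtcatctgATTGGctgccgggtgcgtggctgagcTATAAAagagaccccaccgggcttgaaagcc

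A CCAAT match on the reverse strand was present in both, starting 67 bases before the start of Rgs5 and 57 bases before that of Rgs4. Of 32851 promoter windows of the same length, 33.8% held CCAAT on either strand, and the windows of Rgs2 and Rgs16 did too. TATAAA was found 31 bases before the start of Rgs4 and not in the window of Rgs5; it was present in 12.4% of all windows. The E-box letters CANNTG, searched on both strands, occurred 4 times for Rgs4 and 0 times for Rgs5, against at least once in 66.2% of windows. Promoter windows were found for 6 of the 7 genes. CCAAT and TATAAA do not overlap in these windows, and a match describes letters only.

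The other genes lie at chr1:145846468-145851291 (Rgs2, minus strand), chr1:155587479-155592598 (Rgs16, plus), chr4:62220881-62365035 (Rgs3, plus), chr7:135517135-135562272 (Rgs10, minus) and chr4:4060678-4065966 (Penk, minus) in mm9. Of the 1634 exonic bases annotated for Penk, 233 (14.3%) also belong to the long non-coding RNA gene A830012C17Rik on the opposite strand, and the length that the table gives for Penk, 1401 bases, leaves those out. The other 6 genes share 0 exonic bases with another annotated gene, although a transcript lies within the span of Rgs3 and another within that of Rgs10. All 7 are protein-coding.

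In Tnnt2::Cre hearts Rgs5 and Penk were far lower in mutants than in controls. The controls had 25.5, 40.0 and 51.3 CPM of Rgs5 and the mutants 2.62, 3.64 and 3.34 CPM. Every mutant lay far below every control. The log2 fold change was -3.60 ± 0.27 (SE, n = 3 and 3), or 12.1-fold lower, with an edgeR FDR = 0.00211. It was the 4th lowest of 17045 genes tested.

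Penk had 2.44, 4.98 and 4.36 CPM in the Tnnt2::Cre controls, from 104, 172 and 141 reads. The mutants had 0.202, 0.157 and 0.446 CPM, from 8, 6 and 16 reads. The groups did not overlap, and the counts in the mutants were small. The log2 fold change was -3.86 ± 0.44 (14.6-fold lower, edgeR FDR = 0.0133), the 3rd lowest in the table. Penk passed the filter on low counts through the controls, in which it was high, so nothing is read from its call or rank. Without control replicate 2 or control replicate 3 the FDR rose to 0.0701 and 0.109 at log2 fold changes of -3.65 and -3.79.

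Rgs4 had 0.705, 1.10 and 0.928 CPM in the same controls and 0.202, 0.446 and 0.139 CPM in the mutants. The groups did not overlap, but the fold change of -1.77 ± 0.47 on the log2 scale did not pass the threshold (edgeR FDR = 0.219). Reads of Rgs4 numbered 30 to 38 per control and 5 to 17 per mutant.

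Rgs16 was low in all Tnnt2::Cre libraries, with 0.987, 1.13 and 1.18 CPM in controls and 1.21, 2.83 and 1.39 CPM in mutants. The mutants lay above the controls without overlap, at a log2 fold change of 0.73 ± 0.36 (edgeR FDR = 0.476). Rgs2 had 9.89, 11.3 and 9.49 CPM in controls and 10.2, 17 and 12.3 CPM in mutants, groups that overlapped (0.37 ± 0.20, FDR = 0.496). Rgs3, whose long forms bind G protein beta-gamma dimers, stayed within a narrow span of 25 to 30.9 CPM in all 6 libraries (-0.05 ± 0.11, FDR = 0.903).

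Rgs10 had 18.0, 12.7 and 17.4 CPM in the Tnnt2::Cre controls and 21.8, 8.99 and 6.91 CPM in the mutants. Mutant replicate 1 lay above every control and the other 2 mutants below every control, so the groups overlapped (log2 fold change -0.35 ± 0.37, edgeR FDR = 0.759). Without mutant replicate 1 the log2 fold change was -1.01 (FDR = 0.0176), and the number of genes called in the whole table rose from 50 to 896. That library also had 726 CPM of 4 megakaryocyte markers against 149 and 153 CPM in the other 2 mutants and 166 to 310 CPM in the controls, and the part of these cells in the Rgs10 values was not tested.

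In all, 2 of the 7 genes passed the threshold in Tnnt2::Cre, both lower, where 0.293% of all genes tested passed it and 0.217% were lower. The groups did not overlap for 4 of 7, against 16.9% of all genes. The contrast was in view when the genes were chosen, so nothing is read from these counts. In bulk tissue, fewer cells of a type and less RNA per cell cannot be told apart.

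**Figure D1:**
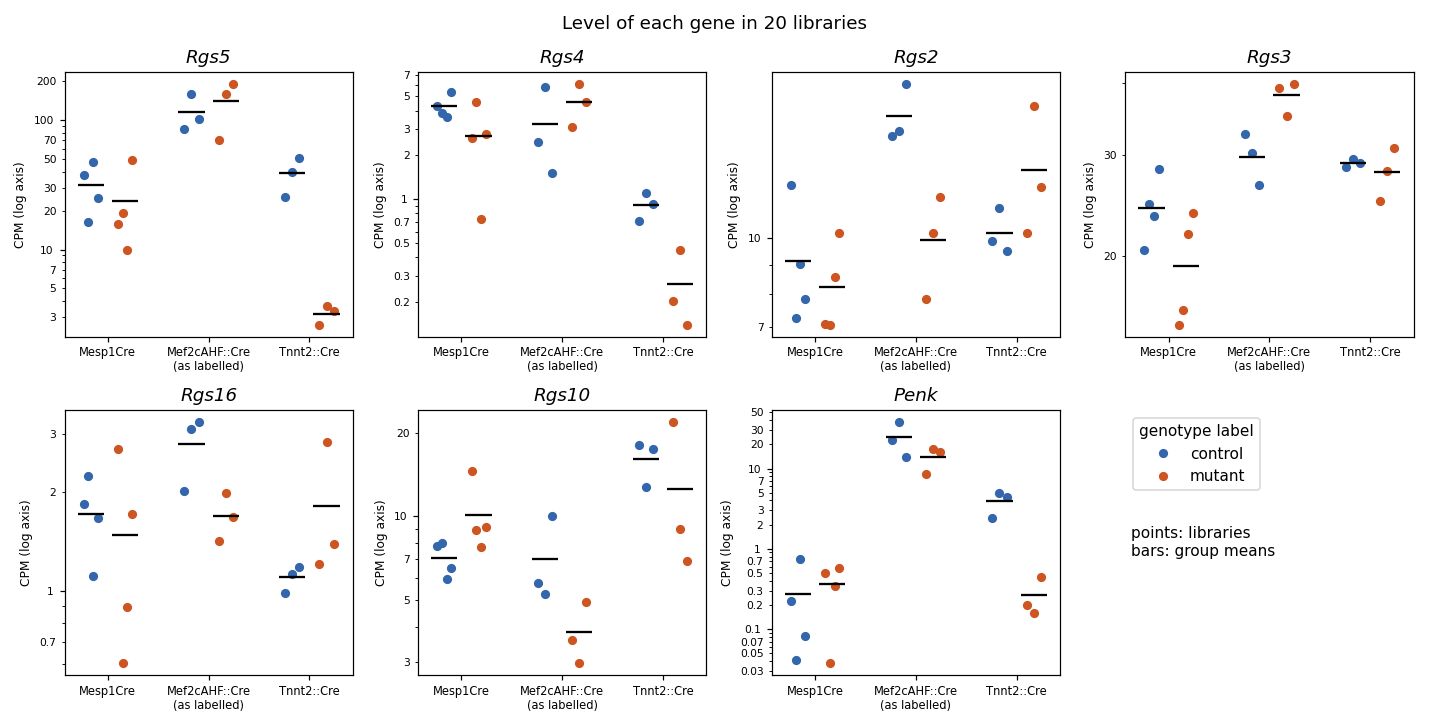
CPM of each of the 7 genes (log axis) in the libraries of each Cre line, with controls in blue, mutants in orange and black bars for group means; Mef2cAHF::Cre is coloured by its titles. The 3 Tnnt2::Cre mutants sit at 2.62 to 3.64 CPM for Rgs5 and at 0.157 to 0.446 CPM for Penk, below all of their controls.

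Mural cell markers were compared beside Rgs5 in Tnnt2::Cre. Of 11 tested genes from a list of 12, 0 were called by edgeR, where only 0.293% of all genes were. An unadjusted p below 0.05 was found for 2 (Myh11 and Tagln, both with higher mutant means) and for 2034 of all 17045 genes tested. The median log2 fold change was 0.06 beside a median of 0.00 over all genes. Pdgfrb, the platelet-derived growth factor receptor of pericytes, had 35.0 ± 5.95 CPM in controls and 35.3 ± 9.25 CPM in mutants (SD, n = 3 each), and Kcnj8, a potassium channel of pericytes, 1.57 ± 0.441 and 1.89 ± 0.66 CPM. The summed list ran from 1250 to 2200 CPM in controls and from 2080 to 2510 CPM in mutants, most of it Acta2, which embryonic cardiomyocytes also express. Cardiomyocyte markers summed to 9660 to 12000 and 11100 to 11700 CPM, and erythroid markers to 13700 to 18800 and 3180 to 20600 CPM, with overlap in each case. The part of any of these cells in the Rgs5 values was not tested.

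In E9.0 Mesp1Cre hearts, 0 of the 6 RGS genes passed the threshold with edgeR, and 0 with DESeq2, where 6.17% of all genes tested passed as higher and 5.29% as lower with edgeR. The number with an unadjusted p below 0.05 was 1 (Rgs10), beside 4267 of all 15883 genes tested. The groups overlapped for all 6, against no overlap for 18.1% of all genes. Rgs5 had 37.9, 16.3, 47.3 and 25.2 CPM in controls and 15.9, 19.0, 9.89 and 49.5 CPM in mutants. Mutant replicate 4 was the highest of the 8 libraries and mutant replicate 3 the lowest, and the log2 fold change was -0.40 ± 0.42 (edgeR FDR = 0.59). It was -1.06 without mutant replicate 4 (FDR = 0.0666) and -0.14 without mutant replicate 3 or control replicate 3, and from -0.25 to -0.62 without any other library.

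Penk was close to undetected at E9.0. The Mesp1Cre controls held 6, 1, 19 and 2 reads of it and the mutants 12, 1, 8 and 15, or at most 0.752 CPM. It did not pass the filter on low counts for this line and was not tested there, whereas all 7 genes passed that filter in the other lines.

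Rgs4 had 4.27, 3.87, 3.60 and 5.36 CPM in Mesp1Cre controls and 2.62, 4.58, 0.725 and 2.79 CPM in mutants. Of the 4 mutants, 3 lay below every control and replicate 2 lay among them (log2 fold change -0.65 ± 0.42, edgeR FDR = 0.356). Rgs10 had 7.79, 8.04, 5.93 and 6.54 CPM in controls and 14.6, 8.93, 7.76 and 9.16 CPM in mutants. The highest controls overlapped the lowest mutant (0.53 ± 0.22, FDR = 0.141).

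For Rgs10 in Mesp1Cre, the 4 megakaryocyte markers summed to 6.06 to 16.2 CPM in controls and 35.4 to 185 CPM in mutants. Of the mutants, replicate 3 was the highest in these markers (185 CPM) and the lowest in Rgs10 (7.76 CPM). Of the controls, replicate 2 was the lowest in these markers (6.06 CPM) and the highest in Rgs10 (8.04 CPM). The 5 macrophage markers summed to 11.9 to 22.3 CPM in controls and 7.34 to 14.8 CPM in mutants. The part of these cells in the Rgs10 values was not tested. Rgs3 (20.5 to 28.4 CPM in controls, 15.2 to 23.8 CPM in mutants) had a log2 fold change of -0.32 ± 0.17 (edgeR FDR = 0.245). Rgs2 ranged from 7.26 to 12.4 and from 7.07 to 10.2 CPM (-0.13 ± 0.21, FDR = 0.745), and Rgs16 from 1.11 to 2.23 and from 0.605 to 2.70 CPM (-0.19 ± 0.49, FDR = 0.844).

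The difference of the mutant change between Mesp1Cre and Tnnt2::Cre was in view when the genes were chosen and is given as a description. In a fit of all 6 groups, the change in Mesp1Cre minus that in Tnnt2::Cre was 3.18 ± 0.66 on the log2 scale for Rgs5 (edgeR FDR = 0.0142) and 4.26 ± 0.97 for Penk (FDR = 0.023). The other 5 genes did not pass, with differences between -0.94 for Rgs16 and 1.10 for Rgs4 and FDRs from 0.313 to 0.475. The share of genes called was 2 of 7, Penk included, beside 3.04% of 18391 genes tested, and nothing is read from this count.

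For Penk this difference set a fall from a control mean of 3.93 ± 1.32 CPM in Tnnt2::Cre against Mesp1Cre groups that were already at 0.274 ± 0.328 CPM in controls and 0.367 ± 0.241 CPM in mutants (SD). The Tnnt2::Cre mutants, at 0.268 ± 0.155 CPM, were at the level of the E9.0 hearts. Penk entered the 6-group fit through the E11.5 libraries in which it was high, so nothing is read from its call. For Rgs5 the control means were alike in the 2 lines, 38.9 ± 12.9 CPM in Tnnt2::Cre and 31.7 ± 13.7 CPM in Mesp1Cre.

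Line, stage and the code number that the labels give the libraries of each line cannot be told apart in this contrast. All 4 Mesp1Cre mutants and 2 of their 4 controls were male by Y-linked reads, against 1 of 3 mutants and 2 of 3 controls in Tnnt2::Cre. With sex as a covariate the differences were 2.79 for Rgs5 (edgeR FDR = 0.0742) and 3.68 for Penk (FDR = 0.0787), and neither passed. With limma-trend on log2(FPKM + 1) Rgs5 lost its call, at 2.01 (FDR = 0.0891), and Penk was at 1.67 (FDR = 0.0435). Without Tnnt2::Cre control replicate 2, Mesp1Cre mutant replicate 1 or Mesp1Cre mutant replicate 4 the difference for Penk lost its call (FDR = 0.0678, 0.0606 and 0.058).

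**Figure D2:**
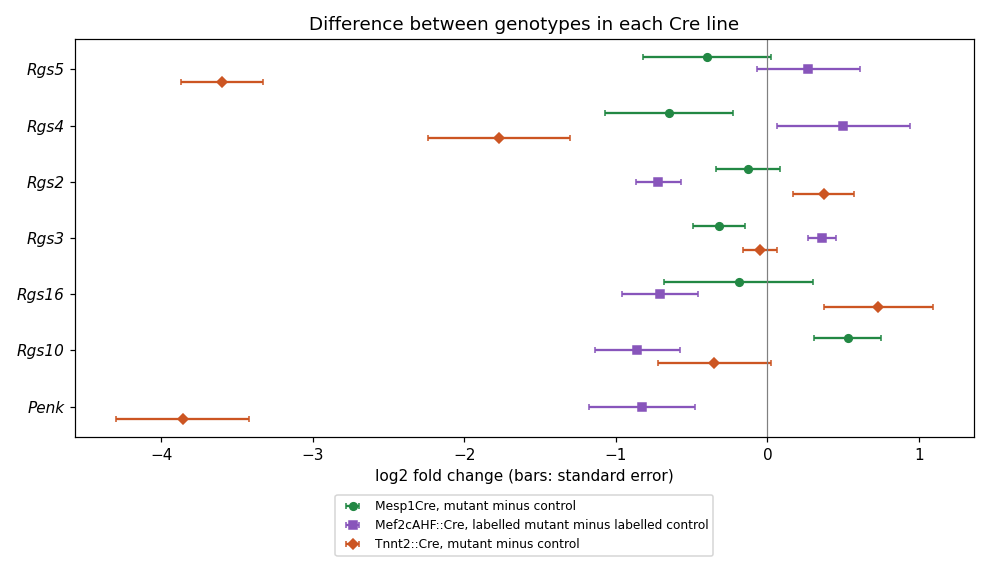
Log2 fold change of each gene between genotypes in the 3 Cre lines (x axis, points with standard errors; Penk was not tested in Mesp1Cre). The Tnnt2::Cre values of Rgs5 (-3.60) and Penk (-3.86) lie far to the left of the other lines, and the Mef2cAHF::Cre values follow the titles and change sign under the column names.

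In the right ventricle and outflow tract of Mef2cAHF::Cre embryos, Rgs5 was the most abundant of the 7 genes per length and the difference between its groups did not pass the threshold. The libraries labelled control had 85.4, 161 and 103 CPM and those labelled mutant 69.8, 159 and 191 CPM. The groups overlapped throughout (log2 fold change 0.27 ± 0.34 by the titles and -0.27 by the column names, edgeR FDR = 0.749). Rgs4, at 2.45, 5.76 and 1.51 CPM in the labelled controls and 3.09, 6.08 and 4.60 CPM in the labelled mutants, overlapped too (0.50 ± 0.44, or -0.50 by the column names, FDR = 0.616).

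Penk had 22.9, 37.8 and 14.1 CPM in the labelled controls and 8.45, 17.7 and 15.9 CPM in the labelled mutants. The lowest labelled control fell among the labelled mutants, and the log2 fold change was -0.83 ± 0.35 by the titles and 0.83 by the column names (edgeR FDR = 0.256). With the column names, the library with the least Penk (8.45 CPM) is a control.

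Rgs2 was the only one of the 7 past the threshold in this line (2.85% of all genes tested passed it). It had 15.1, 15.4 and 18.6 CPM in the labelled controls and 7.85, 10.2 and 11.8 CPM in the labelled mutants. All labelled mutants lay below all labelled controls, at -0.72 ± 0.15 by the titles and 0.72 by the column names (edgeR FDR = 0.0465). The call was lost on leaving out any library except labelled control replicate 2, with FDRs from 0.0606 to 0.174, and in the fit of all 6 groups (FDR = 0.167).

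Rgs3, Rgs16 and Rgs10 also had groups that did not overlap in Mef2cAHF::Cre but did not pass the threshold, so that 4 of 7 did not overlap beside 23.9% of all genes. Rgs3 had 32.6, 30.2 and 26.6 CPM in the labelled controls and 39.3, 35.1 and 39.9 CPM in the labelled mutants (log2 fold change 0.36 ± 0.09, or -0.36 by the column names, edgeR FDR = 0.0859). Rgs16 had 2.01, 3.09 and 3.25 against 1.42, 1.98 and 1.68 CPM (-0.71 ± 0.25, or 0.71, FDR = 0.177).

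Rgs10 had 5.75, 5.24 and 10 CPM in the labelled controls and 3.59, 2.97 and 4.93 CPM in the labelled mutants. All labelled mutants were below all labelled controls, with a log2 fold change of -0.86 ± 0.28 by the titles and 0.86 by the column names (edgeR FDR = 0.144). The 4 megakaryocyte markers summed to 171, 196 and 444 CPM in the labelled controls and to 47.9, 41.0 and 79.9 CPM in the labelled mutants. In this line the library highest in Rgs10 within each group was also the highest in these markers. In both Mesp1Cre groups and in the Tnnt2::Cre controls it was not. The part of these cells in the result was not tested. Macrophage markers overlapped (34.6 to 41.5 and 37.4 to 47.2 CPM).

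The control hearts give 2 contrasts that the choice of genes did not use, although they share control libraries with those above. Stage or region taken, Cre line and the code number in the labels cannot be told apart in either of them. Between E9.0 (Mesp1Cre) and E11.5 (Tnnt2::Cre) whole control hearts, 2 of the 6 RGS genes differed, where 39.6% of all genes tested did. Penk had 0.0412 to 0.752 CPM at E9.0 and 2.44 to 4.98 CPM at E11.5, a log2 fold change of 3.81 ± 0.59. It passed the filter on low counts only through E11.5 libraries, in which it was high, so its call (edgeR FDR = 4.51e-05) was largely set by that filter and is not counted.

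Rgs4 fell between the same controls, from 3.60 to 5.36 CPM at E9.0 to 0.705 to 1.10 CPM at E11.5 (-2.23 ± 0.51, edgeR FDR = 0.00168). Rgs10 rose from 5.93 to 8.04 CPM to 12.7 to 18.0 CPM (1.18 ± 0.32, FDR = 0.00593). Neither overlapped between the stages, nor did Rgs3, which did not pass (0.26 ± 0.14, FDR = 0.156), so that 3 of the 6 RGS genes did not overlap beside 43% of all genes. With Rgs10, macrophage markers went from 11.9 to 22.3 CPM to 49.2 to 50.1 CPM and megakaryocyte markers from 6.06 to 16.2 CPM to 166 to 310 CPM, and their part in its rise was not tested. Rgs5, the neighbour of Rgs4, had a log2 fold change of 0.30 ± 0.44 (FDR = 0.626) between the stages.

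Between right ventricle with outflow tract (Mef2cAHF::Cre) and whole heart (Tnnt2::Cre) controls at E11.5, 6 of 7 genes differed when the libraries labelled control were used, beside 29.4% of all genes tested, and 6 of 7 did not overlap beside 51.1%. Penk was higher in the right ventricle with outflow tract by 2.67 ± 0.51 on the log2 scale (edgeR FDR = 0.000504), Rgs4 by 1.83 ± 0.53 (FDR = 0.0125), Rgs5 by 1.58 ± 0.47 (FDR = 0.0156), Rgs16 by 1.34 ± 0.44 (FDR = 0.028) and Rgs2 by 0.68 ± 0.22 (FDR = 0.0218). Rgs10 was lower, with a log2 fold change of -1.20 ± 0.35 (FDR = 0.013), and Rgs3 was at 0.04 ± 0.15 (FDR = 0.886). When the column names set the controls instead, 4 of 7 differed beside 21.4% of all genes.

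Under the column names Penk (1.84, edgeR FDR = 0.0112), Rgs5 (1.85, FDR = 0.0082) and Rgs4 (2.33, FDR = 0.00345) were higher in the right ventricle with outflow tract and Rgs10 was lower (-2.06, FDR = 0.000366). These 4 genes thus differed under both readings, whereas Rgs2 (-0.04, FDR = 0.93) and Rgs16 (0.63, FDR = 0.36) did not. Some markers of other cells also differed between the regions, where 29.4% of all genes did by the titles and 21.4% by the column names. By the titles, erythroid markers were lower in the right ventricle with outflow tract for 6 of 6 genes (1020 to 5090 CPM in sum, against 13700 to 18800 CPM in whole heart) and atrial markers for 4 of 6 (909 to 1290 against 3560 to 5170 CPM). Of 12 mural markers 4 passed, close to the share of all genes. Of these, 2 were higher, Notch3 (1.18) and Cspg4 (0.66), and 2 lower, Acta2 (-0.58) and Anpep (-0.57). The summed level of the mural markers overlapped (1260 to 1480 against 1250 to 2200 CPM). Cardiomyocyte markers were lower for 5 of 9 and higher for 2, and 0 of 4 megakaryocyte markers passed. By the column names 3 of 6 erythroid, 4 of 6 atrial, 3 of 9 cardiomyocyte and 2 of 4 megakaryocyte markers were lower, and 2 mural and 2 cardiomyocyte markers were higher. The part of these cells in the region values was not tested.

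The count by the titles fell to 2 without Tnnt2::Cre control replicate 1, when Penk and Rgs10 remained, and to 2 without labelled control replicate 2, when Penk and Rgs2 remained.

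Over the 6 groups, Rgs5 was ordered as labelled mutant (140 ± 62.6 CPM) and labelled control (116 ± 39.5 CPM) of Mef2cAHF::Cre, Tnnt2::Cre control (38.9 ± 12.9), Mesp1Cre control (31.7 ± 13.7), Mesp1Cre mutant (23.6 ± 17.7) and Tnnt2::Cre mutant (3.2 ± 0.526). Neighbours in that order overlapped except at 2 steps, from Mef2cAHF::Cre to the Tnnt2::Cre control and to the Tnnt2::Cre mutant. The groups ordered by Penk were the Mef2cAHF::Cre labelled control (25 ± 12 CPM) and labelled mutant (14.0 ± 4.91), the Tnnt2::Cre control (3.93 ± 1.32), and then the Mesp1Cre mutant, Mesp1Cre control and Tnnt2::Cre mutant, which overlapped at 0.0378 to 0.752 CPM. For Rgs4 every step overlapped except the last, from the Tnnt2::Cre control (0.911 ± 0.198 CPM) to the Tnnt2::Cre mutant (0.262 ± 0.162).

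Per length, as FPKM (fragments scaled to gene length and library total), the Tnnt2::Cre controls had mean levels of 8.57 for Rgs10, 7.76 for Rgs5, 2.58 for Rgs2, 2.55 for Penk, 2.46 for Rgs3, 0.428 for Rgs16 and 0.268 for Rgs4. In the Tnnt2::Cre mutants Rgs5 was at 0.706 FPKM and Penk at 0.19 FPKM, below Rgs16 at 0.789 FPKM. In the libraries labelled control of Mef2cAHF::Cre, Rgs5 reached 27.8 FPKM and Penk 19.5 FPKM, against 4.84 for Rgs2 and 1.15 for Rgs4. The range among the 7 genes was therefore wide, and the order of Rgs5 and Penk within it moved with line and genotype.

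The patterns of Rgs5 and Penk resembled each other most in the Tnnt2::Cre libraries. The mean of each Cre line was taken from log2 CPM. Among 14157 genes with a mean of at least 1 CPM, the one closest to Penk over the 20 libraries was Rgs5. The root mean square difference was 0.79 (median over genes 1.32). Next came Fbln5 and Eln, both at 0.83, which encode the elastic fibre proteins fibulin 5 and elastin. The genes closest to Rgs5 were Iigp1 (0.52), an interferon-induced GTPase, Fbln5 (0.57) and Frzb (0.72), a secreted antagonist of Wnt, where the median was 1.16. The measure uses the same contrasts as the changes above and describes them only, since libraries of a line share genotype groups. In Mesp1Cre, Rgs5 and Penk lay on opposite sides of the line mean in some libraries and on the same side in others. They were at -0.59 and 0.95 in mutant replicate 1 and at -1.27 and 0.46 in mutant replicate 3.

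These alike genes were low in the Tnnt2::Cre mutants to different extents. Iigp1 had a log2 fold change there of -2.78 ± 0.37 (edgeR FDR = 0.0205) and Eln of -2.12 ± 0.32 (FDR = 0.0386). Fbln5, at -3.39 ± 0.57 (FDR = 0.0607), and Frzb, at -1.53 ± 0.30 (FDR = 0.0992), did not pass. In Mef2cAHF::Cre none of the 4 passed, and their log2 fold changes by the titles lay between -0.08 for Eln and 0.57 for Iigp1.

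**Figure D3:**
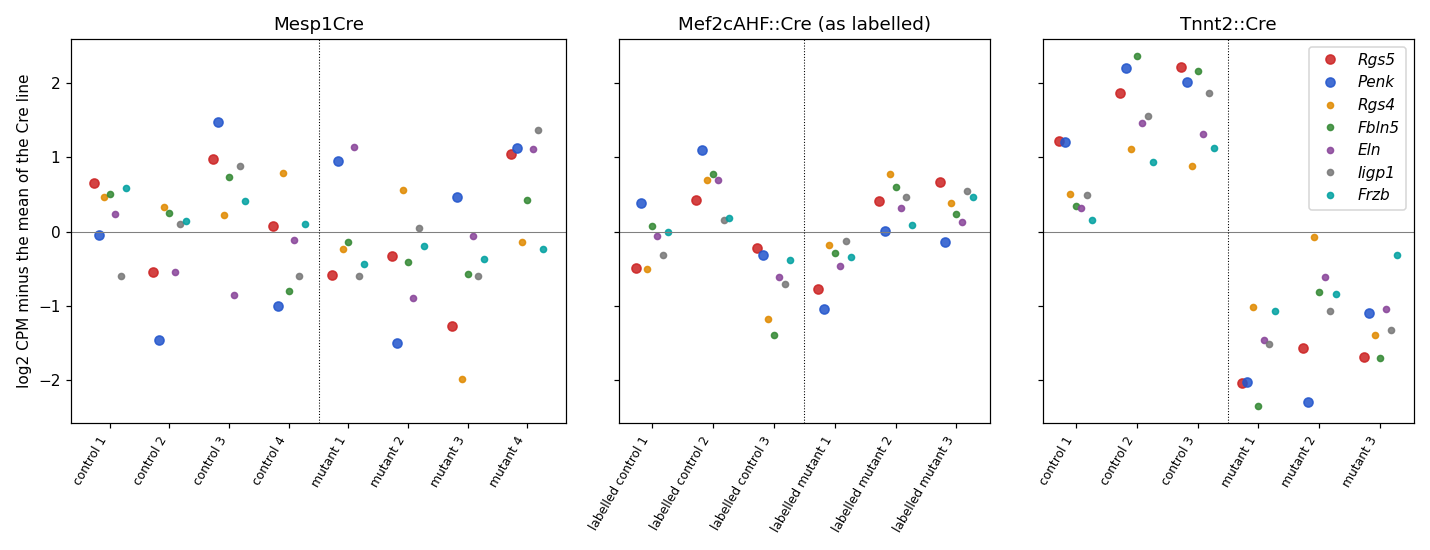
Log2 CPM of Rgs5, Penk, Rgs4 and the genes most like Rgs5 and Penk in each library, minus the mean of the Cre line (y axis, log2 units; 1 panel per line, with a dotted line between controls and mutants). In Tnnt2::Cre all 7 genes lie above 0 in the 3 controls and below 0 in the 3 mutants, while in the other lines Rgs5 and Penk scatter on both sides within each genotype.

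Genes beside the 7 in the genome were compared in the same fits. Nuf2, which encodes a kinetochore protein and lies 124037 bases before Rgs5, had log2 fold changes of -0.28 in Tnnt2::Cre (edgeR FDR = 0.634) and -0.36 in Mesp1Cre (FDR = 0.0443). Hsd17b7, on the other side of Rgs4, was at 0.13 in Tnnt2::Cre (FDR = 0.642). Neither of these flanking genes was called in Tnnt2::Cre. Beside Penk, Gm4802 (-0.10, FDR = 0.869) and Impad1 (0.09, FDR = 0.796) had values close to 0 there.

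Near Rgs3, 4933430I17Rik had a log2 fold change of -2.32 in Mesp1Cre (edgeR FDR = 0.0138), where Rgs3 was at -0.32. The transcripts within Rgs3 (AL672272.1) and Rgs10 (AC130474.1) did not pass in any line, and neither did Uchl5 and Rgs1 beside Rgs2, Rgs8 beside Rgs16, or BC017158 beside Rgs10, among the lines in which each was tested.

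Other genes of the RGS family were followed as a list of 17, of which 16 matched the table and 12 or 13 were tested per line. In Mesp1Cre, 2 of 12 passed, both higher, where 6.17% of all genes tested passed as higher. Rgs11, an R7 subfamily member that works in a complex with the G protein beta 5 subunit, went from 0.462 ± 0.322 CPM in controls to 10.9 ± 5.03 CPM in mutants (SD, n = 4 each), and its log2 fold change was 4.58 ± 0.47 (edgeR FDR = 9.48e-05). Its controls lay near the filter on low counts, which Rgs11 passed through the mutants in which it was high. Its call is therefore not read as support, nor is the count of 2 that holds it. Rgs6, of the same subfamily and known in the heart for its action on muscarinic signalling, went from 7.57 ± 2.15 to 16.1 ± 4.23 CPM (1.11 ± 0.24, FDR = 0.0127).

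In Tnnt2::Cre 0 of 12 of the family passed with edgeR, beside 0.293% of all genes. An unadjusted p below 0.05 was found for 2 of the 12 and for 2034 of all 17045 genes tested. Rgs11 was at 2.31 ± 0.294 CPM in controls and 7.12 ± 5.07 CPM in mutants there, without overlap (log2 fold change 1.63 ± 0.49, edgeR FDR = 0.262), and the other was Rgs12 (-0.41, FDR = 0.35). The difference of the changes between Mesp1Cre and Tnnt2::Cre was 2.94 ± 0.71 for Rgs11 (FDR = 0.0299). It rests on the same Mesp1Cre controls near the filter on low counts, so nothing is read from this call. The median log2 fold change of the family was 0.01 in Mesp1Cre and 0.13 in Tnnt2::Cre, beside 0.00 over all genes in each.

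In Mef2cAHF::Cre 1 of 13 passed, beside 2.85% of all genes. Rgs18, known from platelets and their megakaryocyte precursors, had 7.73 ± 5.63 CPM in the labelled controls and 1.30 ± 0.329 CPM in the labelled mutants, a log2 fold change of -2.54 ± 0.48 by the titles and the opposite by the column names (edgeR FDR = 0.03). The megakaryocyte markers Pf4 (-2.53, FDR = 0.0366), Ppbp (-2.29, FDR = 0.0122) and Itga2b (-1.44, FDR = 0.0291) were lower in the same libraries, 3 of 4 on their list. Their part in the Rgs18 result was not tested.

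**Figure D4:**
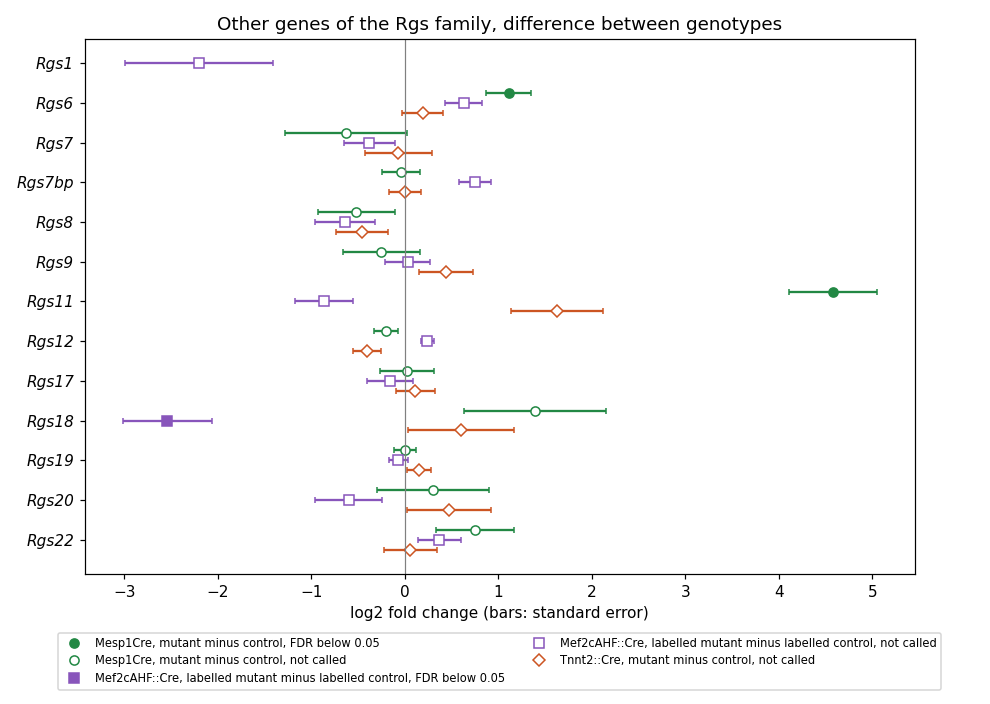
Log2 fold changes between genotypes (x axis, with standard errors) of the other tested RGS family genes in the 3 Cre lines; filled symbols passed the threshold of FDR 0.05 and open ones did not. The filled symbols are Rgs11 (4.58) and Rgs6 (1.11) in Mesp1Cre and Rgs18 (-2.54) in Mef2cAHF::Cre by its titles.

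Between E9.0 and E11.5 controls, 6 of 13 other family members differed, 3 higher at E11.5 and 3 lower, where 39.6% of all genes did. Rgs18 (log2 fold change 2.39), Rgs11 (2.32) and Rgs12 (0.82) were higher, and Rgs20 (-1.40), Rgs17 (-1.18) and Rgs9 (-1.03) were lower, with edgeR FDRs from 5.27e-05 to 0.0459. Rgs11 was near the filter on low counts in the E9.0 controls, so its call is not read as support. Between the right ventricle with outflow tract and whole heart controls, 8 of 13 differed by the titles (Rgs6, Rgs7bp, Rgs8, Rgs9, Rgs11, Rgs12, Rgs20 and Rgs22) and 3 by the column names, where 29.4% and 21.4% of all genes did.

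Around Penk, a list of 11 genes held the other opioid peptides, the opioid receptors and the enzymes that process them. In Tnnt2::Cre 1 of 7 tested genes passed, beside 0.293% of all genes. Oprl1, the nociceptin receptor, had 5.97 ± 0.678 CPM in controls and 2.16 ± 0.166 CPM in mutants (log2 fold change -1.46 ± 0.18, edgeR FDR = 0.0179). Oprd1, the delta receptor for enkephalins, was at 2.80 ± 0.924 and 1.20 ± 0.604 CPM and did not pass. In Mef2cAHF::Cre Oprl1 was again the only gene of 5 to pass, beside 2.85% of all genes. It was higher in the labelled mutants by 0.96 ± 0.18 (FDR = 0.0287) and lower by the column names.

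In Mesp1Cre 0 of 4 tested opioid genes passed with edgeR, and 3 had an unadjusted p below 0.05, as did 4267 of all 15883 genes tested. Of all genes, 6.17% passed there as higher and 5.29% as lower. Between the control stages, Oprd1 (1.88, edgeR FDR = 0.00302), Oprl1 (0.87, FDR = 0.0353) and Cpe (1.76, FDR = 8.55e-07), which encodes a carboxypeptidase that trims propeptides, were higher at E11.5. These were 3 of 9 tested, where 39.6% of all genes differed. Between the regions by the titles, 2 of 9 passed, beside 29.4% of all genes. Oprd1 was higher in the right ventricle with outflow tract (1.72, edgeR FDR = 0.00811). Oprk1, the kappa receptor, was lower (-3.24, FDR = 0.036), from at most 5 reads in each library of that region. Oprk1 passed the filter on low counts through other libraries, so neither its call nor the count of 2 is read as support. By the column names Oprd1 was at 1.51 (FDR = 0.0229) and Oprk1 at -2.32 (FDR = 0.125).

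The alpha and beta subunits of the G proteins, on which RGS proteins act, were followed as a list of 18 genes. Of 17 tested in Mesp1Cre 1 passed, Gnb4 (log2 fold change 0.71, edgeR FDR = 0.00312), where 6.17% of all genes passed as higher. In Mef2cAHF::Cre 2 of 18 passed beside 2.85% of all genes, by the titles Gnao1 at 0.72 (FDR = 0.0105) and Gnaz at -1.70 (FDR = 0.0423). In Tnnt2::Cre 0 of 18 passed with edgeR beside 0.293% of all genes. An unadjusted p below 0.05 was found for 2 of the 18 and for 2034 of all 17045 genes tested. Of the G protein-coupled receptors of the heart, 4 of 14 were higher in Mesp1Cre mutants (6.17% of all genes were): Aplnr, the apelin receptor (2.30), P2ry1, a purine receptor (1.29), Adra1b, an alpha-1 adrenergic receptor (1.25), and Ednrb, the endothelin B receptor (0.99), with FDRs from 0.00693 to 0.0131. In Tnnt2::Cre 0 of 17 receptors passed with edgeR and 4 had an unadjusted p below 0.05, beside the same 2034 of all 17045 genes.

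Genes of the hypoxia response, a list to which Rgs5 and Rgs4 do not belong, were all higher in Mesp1Cre mutants (11 of 11 tested, median log2 fold change 1.51), from Egln3 at 3.13 to Ldha at 0.51. In Tnnt2::Cre 0 of 11 passed with edgeR, 8 had an unadjusted p below 0.05 and 10 had positive values (median 0.67). Of all 17045 genes tested there, 2034 had an unadjusted p below 0.05. In Mef2cAHF::Cre 11 of 11 had negative values by the titles (median -0.86) and positive ones by the column names, and 1 passed, Pfkfb3 (-1.06 by the titles, FDR = 0.033). The difference of the changes between Mesp1Cre and Tnnt2::Cre passed for 2 of 11, Ankrd37 (2.02) and Kdm3a (1.12), both larger in Mesp1Cre. For that difference 3.04% of all genes passed. Within lines, 6.17% of all genes passed as higher in Mesp1Cre, 0.293% passed in Tnnt2::Cre and 2.85% in Mef2cAHF::Cre.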

How the data were processed

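RNA-seq of 20 embryonic heart libraries was analysed. According to the submitters' processing notes the reads were aligned with TopHat2 2.0.8b to mm9; they were assigned to genes with featureCounts, and whether strand was used is not given in the sources used here. The authors deposited whole-number counts per gene and library and FPKM values computed with USeq, and the 40 columns of both were used. The 20 columns of variance-corrected log2 values were not used. The paper and the labels differ on library kit and instrument.

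Count models were built in R 4.3.3 with edgeR 4.0.16 (filterByExpr, TMM, quasi-likelihood F test, Benjamini-Hochberg FDR below 0.05 over all genes tested), each Cre line by itself. The difference between Mesp1Cre and Tnnt2::Cre and the contrasts of controls came from 1 fit of 6 groups. Printed CPM are after TMM over all libraries. Alternatives were DESeq2 1.42.0, limma 3.58.1 (limma-trend), other filters and scalings, covariates, blocks and each library left out. Sex was read from 4 Y-linked genes (10 CPM or more taken as male). Promoter sequences are from RefSeq (GRCm38.p6). The fits were tested on simulated data. No 2 libraries of a group held counts within sampling noise of each other.

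All 7 genes, every other RGS family gene past the threshold and up to 4 genes of each other list were named, with the nearest tested gene on either side of each (1 neighbour is not reported here) and the 3 genes most like Rgs5 and Penk. Oprd1, Oprk1, Cspg4, Notch3, Anpep, Pdgfrb, Kcnj8, Myh11, Tagln, Acta2 and Rgs12 in Tnnt2::Cre were named after their values were seen. The members and gene lists were chosen with earlier results of these data known. Of the marker lists, 12 were measured and the text gives those for mural cells, cardiomyocytes, erythroid cells, the atrial chamber, macrophages and megakaryocytes.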

Additional observations from a re-analysis of the deposited data

Results flagged for a closer look

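The difference between Mesp1Cre and Tnnt2::Cre in the mutant change passed the threshold for Rgs5 (3.18 on the log2 scale, edgeR FDR = 0.0142) and Penk (4.26, FDR = 0.023), by an interaction contrast in the fit of all 6 groups. Rgs5 was lower in 3 of 3 Tnnt2::Cre mutants than in any control, while in Mesp1Cre the mutants spanned the controls. These changes were known when the genes were chosen, and stage, line and the code number in the labels cannot be told apart. Penk did not pass the filter on low counts in Mesp1Cre and entered the fit of 6 groups through E11.5 libraries in which it was high. Nothing is read from its call. With sex as a covariate neither difference passed. Among the 7 genes in the groups of 4 libraries, 0 values stood apart by Dixon's test at its 95% critical value.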

How the results depend on the processing

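Of 101 alternative counts of called genes, 78 stayed within 1.5 times the count first given. In Mef2cAHF::Cre that count (1) became 3 with DESeq2, 4 with all genes of at least 1 count, 0 with limma-trend on log2(FPKM + 0.1) or log2(FPKM + 1), 0 in the fit of 6 groups, and 0 to 1 on leaving out each library. In Tnnt2::Cre (2) it was 1 with at least 10 counts in every library, a filter that leaves Penk untested, and 1 to 3 on leaving out each library. For the difference between lines (2) it was 1 under that filter, 1 with log2(FPKM + 1), where Rgs5 was the gene lost (FDR = 0.0891), 0 with sex as a covariate and 1 to 3 on leaving out each library. Between stages (3, Penk included) it was 1 under that filter, which leaves out Rgs4 and Penk, and 3 on leaving out any library; between regions (6) it was 2 to 5 on leaving out each library. Over all genes, with no library left out, the calls numbered 899 to 3593 in Mesp1Cre (1821 as first given), 129 to 1311 in Mef2cAHF::Cre (482), 17 to 368 in Tnnt2::Cre (50) and 189 to 1242 for the difference between lines (559). Where no construction of the alternative shows the cause, the cause was not tested.

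The fall of Rgs5 in Tnnt2::Cre kept its call in all alternatives (edgeR, DESeq2 or limma FDR at most 0.0393). The Mef2cAHF::Cre column names reversed all 7 genes (Rgs2 0.72, Rgs3 -0.36, Rgs4 -0.50, Rgs5 -0.27, Rgs10 0.86, Rgs16 0.71, Penk 0.83) and Rgs2 between regions (-0.04). Other reversals were of values close to 0: Rgs2 in Mesp1Cre (0.04 and 0.03 with limma-trend at pseudocounts of 0.1 and 1, and -0.24 to 0.05 on leaving out a library), Rgs3 in Tnnt2::Cre (0.06 and 0.05, and -0.13 to 0.03), and Rgs4 between lines (-0.08 at a pseudocount of 1). On leaving out a library Rgs16 in Mesp1Cre ran from -0.64 to 0.08, Rgs5 in Mef2cAHF::Cre from -0.02 to 0.59 and Rgs3 between regions from -0.04 to 0.13. FPKM moved the median of all genes by 0.15, -0.13, 0.11 and 0.23 in Mesp1Cre, Mef2cAHF::Cre, Tnnt2::Cre and between regions.

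The deviations of same-numbered libraries of a line had correlations of -0.079 to 0.202, and those of differently numbered ones -0.281 to 0.22. With so few pairs per line, this cannot tell whether same-numbered libraries were handled together. With the replicate block the counts of called genes were 0 in Mesp1Cre, 2 in Mef2cAHF::Cre (Rgs2 and Rgs10), 2 in Tnnt2::Cre and 2 for the difference between lines. Low counts limit Penk at E9.0 (at most 19 reads) and in Tnnt2::Cre mutants (at most 16).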
